A study of Rattus norvegicus with 4 samples.

Results

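Cultures of heart muscle cells carry RNA of the cells that surround and cover the heart muscle. A group of 35 genes known from these neighbours was described here in neonatal rat ventricular cardiomyocytes with and without phenylephrine (PE), an agonist of alpha-1 adrenergic receptors that induces hypertrophic growth in these cells. The genes were taken by name, 20 known from fibroblasts and 15 from the mesothelium and epicardium, out of 32883 genes in the deposited count table. Of the 35, 34 had a row, and 33 had enough reads to be tested, 18 of the fibroblast genes and all 15 mesothelial and epicardial genes. The name Mfap4 was not matched in the table and is not analysed here. Cd248 had 0 reads in 3 libraries and 1 read in PE replicate 1, and was not tested. A count of 0 allows up to 3 reads, which is 0.0535 to 0.0658 CPM in these libraries (CPM, read counts divided by the TMM-scaled library size), covering counting error only.

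The cells came from ventricles of Sprague-Dawley rats on postnatal day 2. They were plated for a short time first, so that attaching non-cardiomyocytes could be removed, and were then grown with fetal bovine serum in both groups. The PE group (2 libraries) received 20 µM PE for 24 h, and the control group (2 libraries) was labelled untreated. The libraries were strand-specific, made from total RNA depleted of ribosomal RNA, and held 45637881 to 56948370 counted reads each. Transcripts of the mitochondrial genome took 11.7% of the counts of control replicate 2 and 4.61% to 6.19% in the other libraries. Nothing in the labels says that replicates were separate cultures, so the p-values speak only to variation among these 4 libraries, which may be technical.

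Fibroblasts lie between cardiomyocytes and build the collagen and elastic matrix of the ventricle. They are marked by the growth factor receptor PDGFRA and the transcription factor TCF21. The mesothelium is the flat epithelium that lines the pericardial cavity, and over the heart it is the epicardium, which expresses WT1 and TBX18, makes retinoic acid and gives rise to cardiac fibroblasts during development. Mesothelial cells keep epithelial features such as keratins, claudins and surface uroplakins together with the mesenchymal filament vimentin, so the gene groups are not exclusive to a cell type.

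Markers of both kinds of cell were present in the untreated cultures. Pdgfra was at 628 and 650 CPM, Tcf21 at 40.4 and 35.7 CPM and the mesothelial marker Upk3b at 34.5 and 40.3 CPM in control replicates 1 and 2. CPM values are not corrected for gene length, so they are compared between libraries and not between genes. Cardiomyocyte markers were abundant in all 4 libraries: 9 of the 10 listed were matched by name (Ttn was not) and all 9 had reads. Their summed level was 13069 and 13570 CPM in the controls and 12026 and 13180 CPM with PE.

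Of the 33 tested genes, 14 fell with PE, 4 rose and 15 did not pass, by edgeR's quasi-likelihood test with Benjamini-Hochberg adjustment over all 15257 tested genes at 0.05. Among all tested genes, 8.30% were called lower and 7.39% higher. In both classes 7 genes fell and 2 rose, which is 38.9% and 11.1% of the 18 fibroblast genes and 46.7% and 13.3% of the 15 mesothelial and epicardial genes. RNA was taken from whole cultures, and CPM is a share of each library. For a gene that fell, fewer cells of a type, less RNA per cell and more RNA from other cells cannot be told apart. Among the fibroblast genes Pdgfra, Dpt, Fmod, Ogn, Fbln1, Efemp1 and Pi16 fell, and Fbln2 and S100a4 rose. Most surface proteins and both retinaldehyde dehydrogenases fell among the mesothelial genes, while Upk1b and Krt18 rose. With the replicate number added to the fit as a block, Pdgfra, Upk1b, Msln and Aldh1a2 were not called. Fits without 1 library moved these counts, but also moved the number called over all tested genes. Fewer genes were called without either PE library, and more without either control library. With 1 library left in a group, its spread was assumed to equal that of the remaining pair. Calls gained or lost in such fits, here and below, therefore depend on which pair remained. The higher control exceeded the lower 1.37-fold in the median fibroblast gene and 1.21-fold in the median mesothelial gene, and the PE libraries differed 1.09-fold and 1.15-fold.

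**Figure D1:**
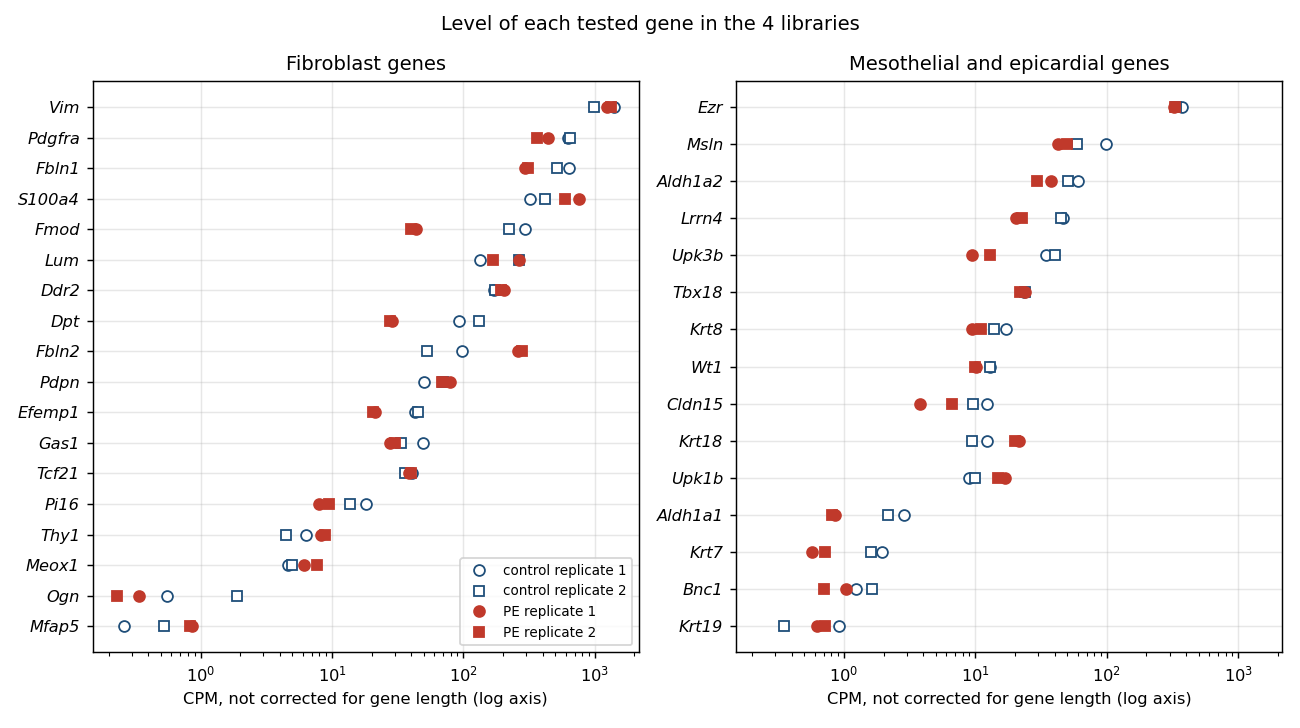
Level of each tested gene in the 4 libraries, in CPM on a log axis, with fibroblast genes on the left and mesothelial and epicardial genes on the right. Open symbols are controls and filled symbols PE, circles replicate 1 and squares replicate 2. Both PE symbols lie left of both controls for 19 of the 33 genes and right of them for 8. Over all tested genes these shares were 28.1% and 28.5%.

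**Figure D2:**
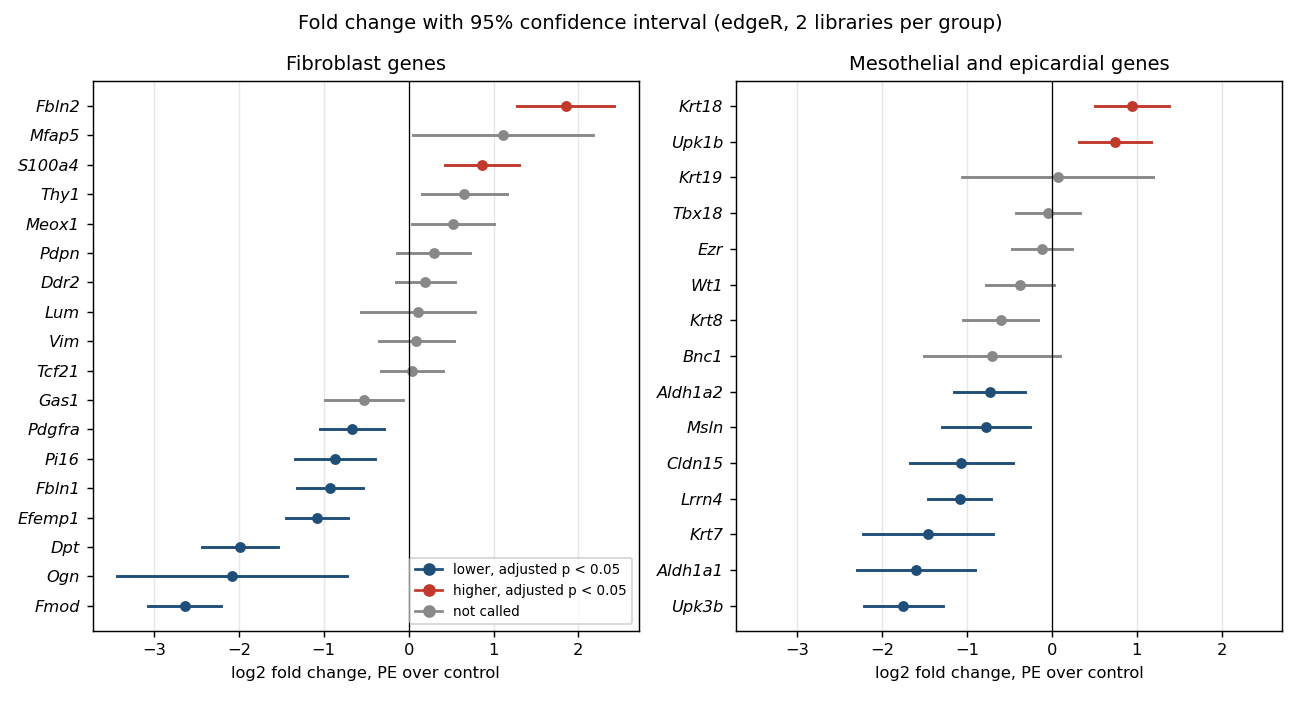
Log2 fold change of PE over control for each tested gene, as points with 95% confidence intervals from the edgeR fit of 2 libraries per group. The 14 genes in blue fell and the 4 in red rose at an adjusted p under 0.05, and the 15 in grey did not pass.

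Promoter sequences are shown for 6 genes on which the comparison turns. Krt8 and Krt18 encode partner keratins and both lie on chromosome 7, Upk3b and Upk1b are both uroplakin genes of the mesothelium, and each of these pairs had log2 fold changes of opposite sign. Fmod and Fbln2 had the lowest and the highest log2 fold change of the 33 genes. The sequences are the 250 bases before each gene's start in RefSeq on the build GRCr8, 5′ to 3′ in the direction of the gene, and a promoter was matched by symbol for 25 of the 35 genes. Capitals mark matches on either strand to a TEAD site, a GC box, a TATA box or a CArG box, the site of serum response factor, and AP-1 sites were searched as well.
Krt8, chr7:135010340-135010589, minus strand: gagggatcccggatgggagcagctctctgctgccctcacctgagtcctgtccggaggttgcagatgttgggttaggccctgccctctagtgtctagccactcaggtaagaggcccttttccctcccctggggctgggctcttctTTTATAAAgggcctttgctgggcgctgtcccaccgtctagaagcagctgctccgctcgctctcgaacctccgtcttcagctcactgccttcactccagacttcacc
Krt18, chr7:135035918-135036167, plus strand: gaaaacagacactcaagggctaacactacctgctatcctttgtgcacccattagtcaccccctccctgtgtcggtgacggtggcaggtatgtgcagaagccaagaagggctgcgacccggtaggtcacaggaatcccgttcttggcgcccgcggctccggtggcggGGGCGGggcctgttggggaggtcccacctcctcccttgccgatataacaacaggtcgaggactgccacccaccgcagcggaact
Upk3b, chr12:26274241-26274490, minus strand: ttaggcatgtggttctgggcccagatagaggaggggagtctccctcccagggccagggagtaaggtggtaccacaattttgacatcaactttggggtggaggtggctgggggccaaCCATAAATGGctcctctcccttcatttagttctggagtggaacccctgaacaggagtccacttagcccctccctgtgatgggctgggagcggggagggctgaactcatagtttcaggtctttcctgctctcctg
Upk1b, chr11:75459131-75459380, plus strand: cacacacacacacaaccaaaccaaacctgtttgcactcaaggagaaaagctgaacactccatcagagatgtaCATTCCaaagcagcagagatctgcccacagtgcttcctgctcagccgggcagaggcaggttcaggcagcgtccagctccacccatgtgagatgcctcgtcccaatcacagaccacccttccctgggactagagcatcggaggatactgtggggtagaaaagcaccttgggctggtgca
Fmod, chr13:48045317-48045566, plus strand: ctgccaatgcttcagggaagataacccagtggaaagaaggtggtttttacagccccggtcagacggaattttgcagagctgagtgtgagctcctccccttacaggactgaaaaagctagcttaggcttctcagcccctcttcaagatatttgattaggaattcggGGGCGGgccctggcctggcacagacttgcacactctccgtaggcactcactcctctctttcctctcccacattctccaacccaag
Fbln2, chr4:125261409-125261658, plus strand: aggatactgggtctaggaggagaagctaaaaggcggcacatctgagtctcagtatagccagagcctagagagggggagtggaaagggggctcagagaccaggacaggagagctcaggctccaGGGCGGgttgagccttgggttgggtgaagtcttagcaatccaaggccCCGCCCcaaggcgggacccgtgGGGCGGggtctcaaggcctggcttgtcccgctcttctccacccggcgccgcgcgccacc

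Matches were a description of these windows and not evidence of binding. The Upk3b window holds a CArG box 134 bases before the start, a match found in 1.5% of 33465 rat promoters of that length and in 1 of the 25 matched here. A TEAD match (GGAATG) stands 178 bases before the start of Upk1b, a motif found in 12.1% of all promoters and in 4 of the 25. Krt8 has overlapping TATA matches (TATAAA) on both strands, at 106 and 104 bases before the start, where 12.9% of all promoters and 5 of the 25 hold the motif. GC boxes (GGGCGG) occur in the windows of Krt18, Fmod and Fbln2, at 3 positions in Fbln2. They were present in 30.5% of all promoters and 9 of the 25. Krt18 and Fbln2 rose and Fmod fell. An AP-1 match (TGAGTCA) was present in 4.05% of all promoters and 1 of the 25, and in none of the 6 shown.

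Among the fibroblast receptors, Pdgfra (ENSRNOG00000002244), which receives platelet-derived growth factor, fell. Its level was 628 and 650 CPM in control replicates 1 and 2 and 443 and 362 CPM in PE replicates 1 and 2. The PE libraries lay below both controls, with a log2 fold change of -0.67 ± 0.17 (SE; adjusted p = 0.0253, edgeR). Without PE replicate 1 it did not pass (-0.81, adjusted p = 0.194), nor without PE replicate 2 (-0.52, adjusted p = 0.525). Ddr2, the collagen-binding receptor kinase of fibroblasts, was at 171 and 175 CPM in the controls and 205 and 193 CPM with PE. Both PE libraries were above the controls, but the difference did not pass (0.20, 95% interval -0.15 to 0.54, adjusted p = 0.45).

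The transcription factor genes of the fibroblast group were not called. Tcf21, needed to form cardiac fibroblasts, was at 40.4 and 35.7 CPM in the controls and 38.6 and 39.6 CPM with PE. The PE values lay between the control values, and the 95% interval of its log2 fold change of 0.04 ran from -0.32 to 0.40 (adjusted p = 0.911). Its sign turned with library sizes alone (-0.01) and without control replicate 2 (-0.05). Meox1, a homeobox factor linked to fibroblast activation, was at 4.62 and 5.0 CPM against 6.16 and 7.67 CPM. The groups did not overlap, but the difference did not pass over the 4 libraries (0.52 ± 0.21, adjusted p = 0.137). With control replicate 2 left out it was at 0.58, and with control replicate 1 left out at 0.47.

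Of the small matrix proteins that bind collagen fibrils, 3 of 4 fell. Fmod (ENSRNOG00000003183), fibromodulin, was at 296 and 223 CPM in the controls and 43.7 and 39.9 CPM with PE. Every PE value was far below every control value. The log2 fold change was -2.64 ± 0.19 (adjusted p = 2.39e-05), 6.22-fold lower, and its rank from the lowest was 123 of 15257 genes. Dpt (ENSRNOG00000002947), dermatopontin, which binds decorin and speeds collagen assembly, went from 91.8 and 131 CPM to 28.5 and 27.6 CPM. It was 3.96-fold lower, with the PE libraries nearly equal (-1.99 ± 0.20, adjusted p = 0.000147). Both Fmod and Dpt kept their call without any single library.

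Ogn (ENSRNOG00000047786), osteoglycin, had 30 and 87 reads in the controls and 19 and 11 with PE, or 0.559 and 1.91 CPM against 0.339 and 0.233 CPM. The control libraries differed 3.41-fold from each other. The fall of 2.08 ± 0.61 on the log2 scale passed narrowly (adjusted p = 0.0442), was at -0.95 without control replicate 2 (adjusted p = 0.335) and did not pass with upper-quartile factors (adjusted p = 0.0512). Lum, lumican, of the same proteoglycan family, was at 133 and 267 CPM in the controls and 263 and 168 CPM with PE. These values overlap fully, with a difference of 0.11 ± 0.30 (adjusted p = 0.856). Lum was at -0.30 without control replicate 1, at 0.70 without control replicate 2 and at -0.24 without PE replicate 1. Its direction turned with the library left out. The ratio of Lum to Fmod reads within a library, in which gene length cancels between libraries, was 0.449 and 1.20 in the controls and 6.02 and 4.23 with PE.

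Fibulins, glycoproteins that bind elastic fibres and basement membranes, changed in opposite directions. Fbln1 (ENSRNOG00000014137) fell from 639 and 513 CPM to 294 and 311 CPM (-0.93 ± 0.17, adjusted p = 0.00508). Efemp1 (ENSRNOG00000003553), another fibulin family member, fell from 43.1 and 45.1 CPM to 21.2 and 20.6 CPM, 2.11-fold lower (-1.08 ± 0.16, adjusted p = 0.00156). The libraries of a group differed little for Efemp1, whose call held without each library in turn. Fbln1 was not called without PE replicate 1 (at -0.89 with adjusted p = 0.134) or without PE replicate 2 (at -0.96 with adjusted p = 0.0834). Fbln2 (ENSRNOG00000007338) rose from 97.2 and 52.6 CPM to 260 and 281 CPM, 3.60-fold higher (1.85 ± 0.26, adjusted p = 0.0009). The controls differed 1.85-fold, but both PE libraries stood well above both, and Fbln2 was called without any single library. Reads of Fbln2 per read of Fbln1 went from 0.152 and 0.103 in the controls to 0.882 and 0.903 with PE.

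Mfap5, a microfibril-associated glycoprotein, had few reads, 14 and 24 in the controls and 48 and 39 with PE. Its PE values of 0.855 and 0.826 CPM were above the control values of 0.261 and 0.527 CPM. The difference did not pass over the 4 libraries (1.11 ± 0.48, adjusted p = 0.155). With control replicate 2 left out it was at 1.68, and with control replicate 1 left out at 0.68. Pi16 (ENSRNOG00000000525), a peptidase inhibitor-like protein of adventitial fibroblasts, fell from 18.2 and 13.7 CPM to 8.0 and 9.53 CPM (-0.87 ± 0.21, adjusted p = 0.0196). The groups did not overlap, and the call was lost without PE replicate 1 (-0.74, adjusted p = 0.261) or without PE replicate 2 (at -0.99 with adjusted p = 0.0678).

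The surface proteins of fibroblasts were not called. Thy1, a lipid-anchored glycoprotein, was at 6.34 and 4.48 CPM in the controls and 8.18 and 8.88 CPM with PE. Its PE values were the higher ones (0.65 ± 0.23, adjusted p = 0.0804), and it passed without control replicate 1 (0.93, adjusted p = 0.000253) and with no filter (adjusted p = 0.0279). Gas1, a Hedgehog co-receptor, was at 49.5 and 33.2 CPM against 27.5 and 30.1 CPM (-0.52 ± 0.21, adjusted p = 0.123). The controls differed 1.49-fold for Gas1, which was at -0.20 without control replicate 1 and at -0.78 without control replicate 2. Pdpn, podoplanin, also made by epicardial and lymphatic cells, was at 49.7 and 69.9 CPM in the controls and 78.4 and 68.1 CPM with PE, with overlap (0.29 ± 0.20, adjusted p = 0.371). It was at 0.56 without control replicate 2 (adjusted p = 0.00265) and 0.07 without control replicate 1.

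Of the cytoplasmic proteins in the fibroblast group, S100a4 (ENSRNOG00000011821), a calcium-binding protein made by fibroblasts and leukocytes, rose. It went from 323 and 415 CPM to 755 and 591 CPM, with no overlap (0.87 ± 0.20, adjusted p = 0.0136). Without PE replicate 1 it did not pass (0.68, adjusted p = 0.288). Of 10 macrophage and leukocyte markers, 3 fell and 7 did not pass. Their summed level was 343 and 388 CPM in the controls and 256 and 230 CPM with PE. Which cells the S100a4 reads came from was not tested. Vim, vimentin, the intermediate filament of mesenchymal cells, was at 1402 and 989 CPM in the controls and 1230 and 1317 CPM with PE. The PE values lay between the controls (0.09 ± 0.20, adjusted p = 0.812), and Vim was at 0.37 without control replicate 1 (adjusted p = 0.0223) and -0.14 without control replicate 2.

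Of the 5 surface proteins of the mesothelium, 4 fell and 1 rose. Upk3b (ENSRNOG00000023686), a uroplakin-related membrane protein that marks mesothelium, fell from 34.5 and 40.3 CPM to 9.34 and 12.9 CPM. It was 3.37-fold lower, with clear separation of the groups (-1.75 ± 0.21, adjusted p = 0.000359), and passed without any single library. Lrrn4 (ENSRNOG00000032989), a leucine-rich repeat membrane protein used as a mesothelial marker, fell from 46.0 and 45.0 CPM to 20.2 and 22.6 CPM (-1.09 ± 0.17, adjusted p = 0.00162). Cldn15 (ENSRNOG00000001419), a claudin of tight junctions, fell from 12.2 and 9.57 CPM to 3.81 and 6.61 CPM (-1.07 ± 0.27, adjusted p = 0.0239). The PE replicates of Lrrn4 lay closer together than those of Cldn15, and without PE replicate 1 neither passed (-1.0 and -0.72, adjusted p = 0.0603 and 0.286).

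Msln (ENSRNOG00000019445), mesothelin, the lipid-anchored surface protein of mesothelial cells, was at 98.8 and 59.3 CPM in the controls and 42.8 and 49.4 CPM with PE. It fell by 0.78 ± 0.23 on the log2 scale close to the threshold (adjusted p = 0.0475). Control replicate 1 was the high library, and without it the log2 fold change was -0.36 (adjusted p = 0.0712). Msln was not called without PE replicate 1 (at -0.67 with adjusted p = 0.341) or without PE replicate 2 (at -0.88 with adjusted p = 0.127) either. Upk1b (ENSRNOG00000027380), a tetraspanin of the uroplakin complex, rose from 8.87 and 9.94 CPM to 16.7 and 14.7 CPM (0.74 ± 0.19, adjusted p = 0.024). Its groups did not overlap, but the call was lost without PE replicate 1 (0.65, adjusted p = 0.318) or without PE replicate 2 (at 0.84 with adjusted p = 0.115). Reads of Upk1b per read of Upk3b were 0.257 and 0.247 in the controls and 1.79 and 1.14 with PE.

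The epicardial transcription factor genes did not pass. Wt1, the zinc-finger factor of the epicardium, was at 12.9 and 13.0 CPM in the controls and 10.1 and 9.85 CPM with PE. Its replicates lay close together and the PE values were lower, but the 95% interval of -0.38 ran from -0.78 to 0.03 (adjusted p = 0.206). Tbx18, a T-box factor of the epicardium, was at 23.5 and 23.8 CPM against 23.9 and 21.9 CPM. Those values overlap (-0.05, interval -0.42 to 0.33, adjusted p = 0.895), and the sign turned without PE replicate 2 (0.02). Bnc1, basonuclin, a zinc-finger factor of mesothelium and keratinocytes, had 66 and 74 reads in the controls and 58 and 33 with PE (-0.71 ± 0.36, adjusted p = 0.233). The strand setting of the read counting is not given in the sources used here, so reads of a gene and of an antisense or overlapping transcript cannot be told apart.

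The keratins, which form filaments as pairs of a type I and a type II chain, divided. Krt18 (ENSRNOG00000047393), the type I partner of Krt8, rose from 12.1 and 9.46 CPM to 21.4 and 20.0 CPM (0.94 ± 0.20, adjusted p = 0.00886). Krt8 (ENSRNOG00000009779) was at 17.1 and 13.8 CPM in the controls and 9.37 and 11.0 CPM with PE, below the controls but not called (-0.61 ± 0.20, adjusted p = 0.0683). The Krt8 result depended on the setting. It passed with DESeq2 (adjusted p = 0.0496), with no filter (adjusted p = 0.0334) and without control replicate 2 (-0.75, adjusted p = 0.000328), while the authors' deposited table gave an adjusted p of 0.0572. The Krt18 call was lost without PE replicate 1 (0.89, adjusted p = 0.0848). Reads of Krt18 per read of Krt8 were 0.710 and 0.685 in the controls and 2.29 and 1.83 with PE.

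Krt7 (ENSRNOG00000008057), a type II keratin of simple epithelia, had 104 and 73 reads in the controls and 32 and 34 with PE. It fell 2.75-fold (-1.46 ± 0.34, adjusted p = 0.0169) and was not called without PE replicate 1 (at -1.29 with adjusted p = 0.122). Krt19 had 49 and 16 reads in the controls and 35 and 34 with PE. The control libraries bracketed both PE libraries (0.07 ± 0.50, adjusted p = 0.951), and the sign turned without control replicate 2 (-0.44) or PE replicate 2 (-0.03). Krt8 and Krt18 have processed copies in mammalian genomes, so reads that match a copy make their single values less certain.

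Both retinaldehyde dehydrogenases, which make retinoic acid, fell. Aldh1a2 (ENSRNOG00000055049), the epicardial enzyme, went from 60.4 and 50.9 CPM to 37.6 and 29.2 CPM (-0.74 ± 0.19, adjusted p = 0.0235). Aldh1a1 (ENSRNOG00000017619) went from 2.87 and 2.17 CPM to 0.855 and 0.805 CPM, 3.03-fold lower (-1.60 ± 0.31, adjusted p = 0.00613). Neither gene's groups overlapped. Aldh1a1 passed without any single library, whereas Aldh1a2 was not called without PE replicate 1 (at -0.93 with adjusted p = 0.0992) or without PE replicate 2 (at -0.56 with adjusted p = 0.472). Ezr, ezrin, which ties the membrane to actin and is made by many cell types, was at 372 and 338 CPM in the controls and 327 and 329 CPM with PE. The PE values were slightly lower, and the difference did not pass (-0.11, interval -0.47 to 0.24, adjusted p = 0.694).

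**Figure D3:**
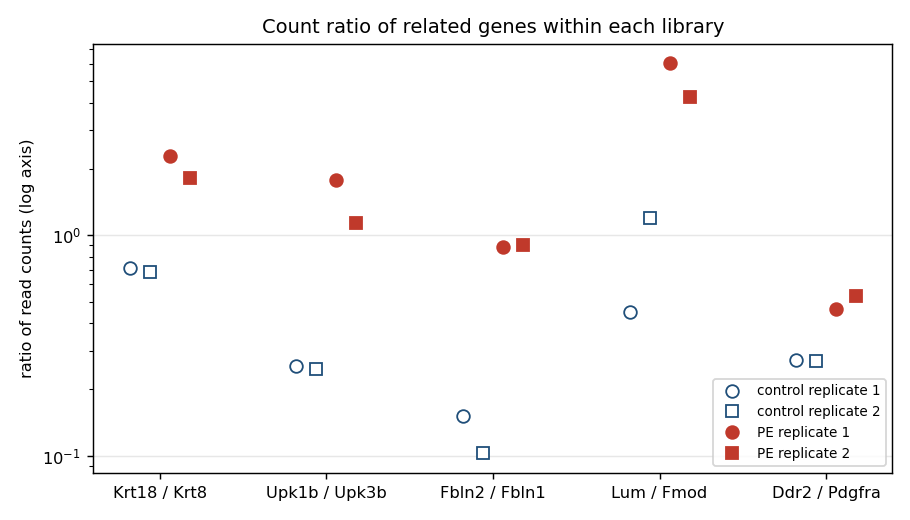
Ratio of the read counts of 2 genes within each library, on a log axis, for 5 pairs chosen after their values were seen. Open symbols are controls and filled symbols PE. In all 5 pairs both PE ratios are above both control ratios, as for Upk1b over Upk3b with 0.257 and 0.247 in the controls and 1.79 and 1.14 with PE.

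The within-library ratios compare genes of a shared family or cell type without any scaling between libraries. Reads of Ddr2 per read of Pdgfra were 0.272 and 0.269 in the controls and 0.462 and 0.531 with PE, a 1.83-fold change in the mean log ratio. The change was 2.93-fold for Krt18 over Krt8, 5.68-fold for Upk1b over Upk3b, 6.88-fold for Lum over Fmod and 7.15-fold for Fbln2 over Fbln1. An exact two-sided permutation test gave p = 0.333 for each of the 5, and also after Benjamini-Hochberg adjustment, which is the smallest value that 2 against 2 libraries allow. The pairs were chosen because their values differed, so the ratios are a description.

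The median log2 fold change was -0.71 over the 15 mesothelial and epicardial genes and 0.06 over the 18 fibroblast genes, against -0.01 over all tested genes. Values were negative in 12 of the 15 mesothelial genes and in 8 of the 18 fibroblast genes, and no test of the difference between the classes was made. The mesothelial median was -0.44 without control replicate 1. The fibroblast median turned sign without control replicate 1 (-0.06), control replicate 2 (-0.09) or PE replicate 1 (-0.09). Both PE libraries were below both controls in 11 mesothelial and 8 fibroblast genes, and above both in 2 and 6. Over all tested genes these shares were 28.1% below and 28.5% above.

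**Figure D4:**
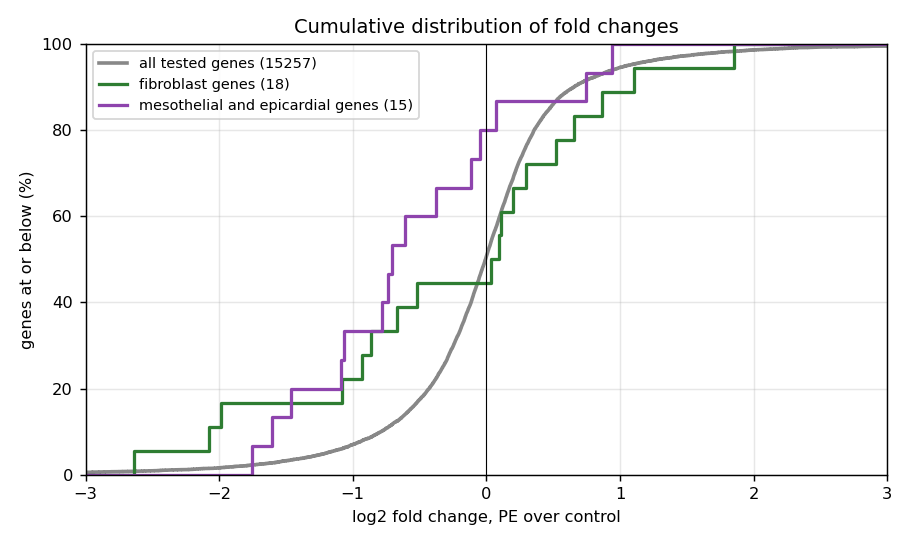
Cumulative share of genes by log2 fold change of PE over control, for all 15257 tested genes (grey), 18 fibroblast genes (green) and 15 mesothelial and epicardial genes (purple), with values beyond ±3 not drawn. The mesothelial curve crosses 50% at -0.71 and the fibroblast curve at 0.06, where the grey curve crosses it at -0.01.

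Fibroblast genes spread widely, with a standard deviation of log2 fold changes of 1.18 against 0.79 for the mesothelial genes and 0.80 for all tested genes. Fold changes of at least 2 in size were seen downward in 4 fibroblast and 5 mesothelial genes and upward in 2 and 0. No share of all tested genes at that size is given here, so these counts only describe the listed genes. The summed level of the fibroblast genes overlapped between groups, at 3995 and 3626 CPM in the controls and 3710 and 3476 CPM with PE. Vim made up 33.4% of that sum, and without it the sums were 2592 and 2637 CPM against 2480 and 2159 CPM. The mesothelial sum was 705 and 619 CPM against 525 and 531 CPM, and without Ezr, 57.4% of it, 333 and 281 CPM against 198 and 201 CPM. Sums follow the most abundant genes and are not corrected for length.

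Calls in the authors' deposited table, from their own DESeq2 comparison, matched those above in all 33 tested genes. That table called 14 of these genes lower and 4 higher at an adjusted p under 0.05, where 8.65% and 8.13% of its 15231 genes with an adjusted p were called.

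Other genes of the same cell types were read from lists of related genes. The lists were chosen with earlier results of these data known, so their counts are a description and not separate support. Of 18 tested genes of resident fibroblasts, 4 fell, 2 rose and 12 did not pass, with a median log2 fold change of -0.24. Col3a1, a fibrillar collagen chain, fell by 1.35 ± 0.20 and Col6a1, of microfibrillar collagen, by 1.03 ± 0.21 on the log2 scale. Sfrp1, a secreted Wnt antagonist, rose by 1.73 ± 0.16 and the laminin chain Lamc1 by 1.02 ± 0.19 (adjusted p of the 4 genes 0.00118, 0.00713, 9.94e-05 and 0.0052, in this order). Col6a1 was not called without PE replicate 1 (at -0.92 with adjusted p = 0.11). The number of calls in this list moved with the library left out, as over all tested genes, and its median was 0.03 without control replicate 1. Col1a2 had 5 reads in control replicate 1 and 1 in each other library, while Col1a1, its partner chain in type I collagen, had 183703 to 357488 reads. A count near 0 in this table, as for Cd248, is therefore given as listed and not read as absence.

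Of 15 tested genes of activated fibroblasts, 6 rose, 3 fell and 6 did not pass (median 0.14). Piezo2, a mechanically gated channel, rose by 2.17 ± 0.21, Timp1, an inhibitor of matrix metalloproteinases, by 1.42 ± 0.21 and Ltbp2, a microfibril-associated protein, by 1.19 ± 0.23, while Cilp, a cartilage and fibroblast matrix protein, fell by 1.43 ± 0.20 on the log2 scale. The adjusted p-values of these 4 genes were 0.000101, 0.00128, 0.00639 and 0.000862, in this order. Its median moved to 0.42 when control replicate 1 was left out and to -0.08 when control replicate 2 was. More genes of this list were called without either control library and fewer without either PE library, as over all tested genes. Acta2 and Tagln in this list are also smooth muscle genes.

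Of 13 tested further mesothelial and epicardial genes, 8 fell, 1 rose and 4 did not pass (median -0.87). Nkain4, a membrane protein of mesothelium, fell by 2.72 ± 0.47 on the log2 scale, the endocytic receptor gene Lrp2 was at -2.35 ± 0.24 and Sema3d, a guidance factor of the epicardium, at -1.56 ± 0.24. Slpi, a secreted protease inhibitor of epithelia, rose by 2.09 ± 0.26. Adjusted p-values were 0.0033, 0.00015, 0.00149 and 0.000459 for these 4 genes, in this order. This list had fewer calls without either PE library, as had all tested genes. The names Muc16 and Ptgis were not matched.

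Genes that handle retinoids included 4 that fell, 1 that rose and 8 that did not pass (median -0.52). The retinoid receptor genes Rxrg, Rxra and Rara fell by 4.29 ± 0.30, 1.02 ± 0.20 and 0.86 ± 0.17 on the log2 scale, and Cyp26b1, which degrades retinoic acid, rose by 1.17 ± 0.30 (adjusted p = 2.24e-05, 0.00624, 0.00684 and 0.0229). Without PE replicate 1, Rxra, Rara and Cyp26b1 did not pass (-0.94, -0.72 and 1.11, adjusted p = 0.094, 0.287 and 0.0692), and Rara was not called without PE replicate 2 (at -1.0 with adjusted p = 0.0648). Cardiomyocytes also express these receptors. The list had more calls without either control library and fewer without either PE library, as had all tested genes. The median was -0.31 without control replicate 1.

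Other keratins and epithelial junction genes gave 5 higher, 2 lower and 6 not called of 13 (median 0.07). Krt80 rose by 3.49 ± 0.27 and Krt23 by 1.91 ± 0.32 (adjusted p = 3.61e-05 and 0.00293). Krt17 had 37 and 16 reads in the controls and 2 and 5 with PE, a log2 fold change of -2.90 ± 0.72 (adjusted p = 0.0222) that was not called without control replicate 1 (at -2.31 with adjusted p = 0.0962) or without PE replicate 1 (at -2.28 with adjusted p = 0.181). Cldn3 had 3 and 0 reads in the controls and 12 and 23 with PE (3.42 ± 0.98, adjusted p = 0.0406). It was not called without control replicate 2 (at 2.58) or PE replicate 2 (at 2.75), and without control replicate 1 the control is at 0 reads. The median of this list moved to 0.39 when control replicate 1 was left out and to -0.14 when control replicate 2 was. The list had fewer calls without either PE library, as had all tested genes. The epithelial marker Epcam had 1 read in control replicate 1 and 0 in the other libraries.

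Of 7 genes of ezrin relatives and their membrane partners, 2 rose and 5 did not pass (median -0.11). Msn, moesin, the relative of ezrin found in mesenchymal and endothelial cells, rose by 1.26 ± 0.16, and Cd44, a hyaluronan receptor that binds these proteins, by 0.77 ± 0.17 (adjusted p = 0.000642 and 0.0132). Cd44 was not called without PE replicate 1 (at 0.66 with adjusted p = 0.324) or without PE replicate 2 (at 0.89 with adjusted p = 0.0879). More genes of this list were called without control replicate 1, as over all tested genes, and its median was 0.07 without control replicate 2.

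**Figure D5:**
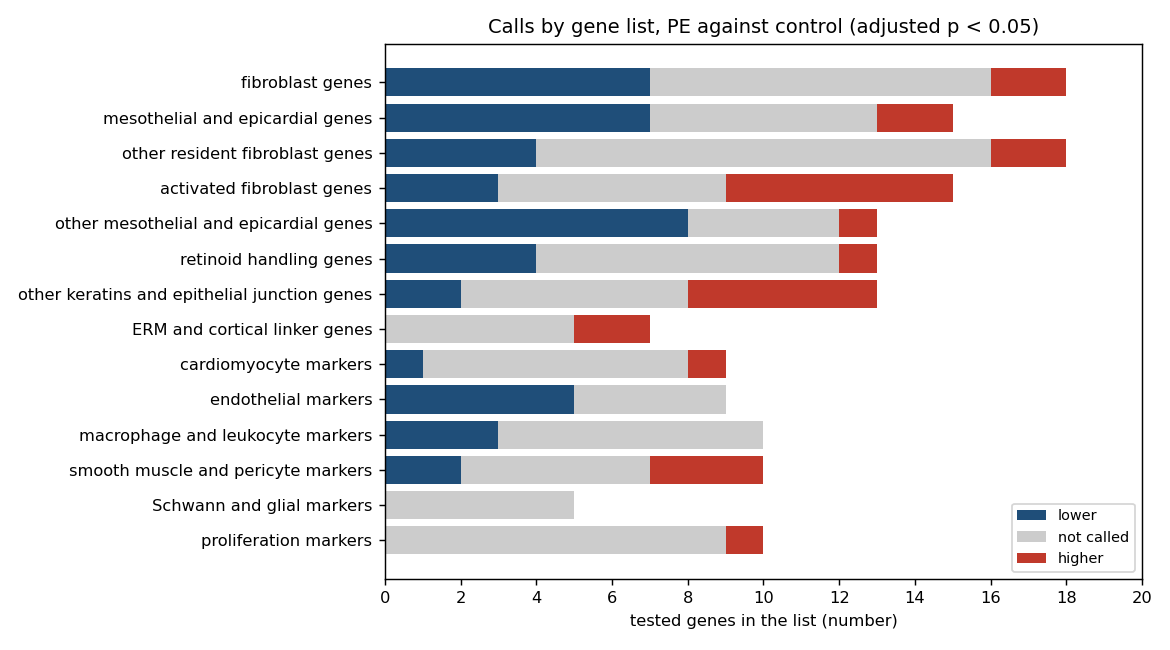
Number of tested genes called lower (blue), not called (grey) and called higher (red) with PE in each gene list, at an adjusted p under 0.05 in edgeR. Fibroblast and mesothelial genes have 7 lower and 2 higher calls each, the other mesothelial list has 8 lower and 1 higher, and endothelial and macrophage markers have 5 and 3 lower and 0 higher.

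Markers of other cell types that such cultures could hold were read the same way, and their part in these results was not tested. Among all tested genes, 8.30% were called lower and 7.39% higher. All calls were lower for endothelial markers (55.6% of those tested) and macrophage markers (30.0%). Smooth muscle markers were called in both directions (20.0% lower, 30.0% higher). Cardiomyocyte markers (11.1% in each direction) and proliferation markers (10.0% higher) were near the shares of all tested genes. Of 9 tested endothelial markers, 5 fell and 4 did not pass (median -0.72), and the summed level was 230 and 228 CPM in the controls and 139 and 143 CPM with PE. Emcn, a sialomucin of capillaries and veins, fell by 1.54 ± 0.27, the junction cadherin Cdh5 by 0.95 ± 0.16, the clotting factor carrier Vwf by 0.88 ± 0.26 and Kdr, the receptor of vascular endothelial growth factor, by 0.81 ± 0.16 on the log2 scale (adjusted p = 0.00365, 0.00315, 0.0486 and 0.00587). Leaving out either PE library left Emcn as the call of this list, and leaving out control replicate 1 removed the Vwf call too (-0.59, adjusted p = 0.128). The name Pecam1 was not matched.

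Of the 10 macrophage and leukocyte markers, the mannose receptor gene Mrc1 fell by 0.93 ± 0.19, the growth factor receptor gene Csf1r by 0.77 ± 0.18 and the lysosomal protein gene Cd68 by 0.63 ± 0.16 on the log2 scale (adjusted p = 0.00824, 0.0148 and 0.0243). The list's median was -0.57 and all 10 values were negative. Over all libraries, 7 were lower at an unadjusted p under 0.05 in edgeR, and DESeq2 called 4 lower. No share of all tested genes at that unadjusted threshold is given here, so the 7 are not read as an excess. In edgeR the calls were lost without either PE library and increased without either control library. The number called over all tested genes moved the same way.

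Smooth muscle and pericyte markers went in both directions, with 3 higher and 2 lower of 10 (median -0.28). The adhesion molecule gene Mcam rose by 1.58 ± 0.16, Des, the muscle filament desmin, by 1.30 ± 0.23 and the proteoglycan gene Cspg4 by 1.20 ± 0.23, while Lmod1, a leiomodin, fell by 1.5 ± 0.29 on the log2 scale (adjusted p = 0.000156, 0.00404, 0.00613 and 0.00619). The sums over the 10 markers were 3152 and 2205 CPM in the controls and 4995 and 5801 CPM with PE, but 7 of the 10 had negative log2 fold changes. Most of each sum was Des, at 2078 and 1307 CPM in the controls and 3856 and 4508 CPM with PE. Cardiomyocytes also make desmin. The number of lower calls in this list moved with the library left out.

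Among 9 cardiomyocyte markers Ckm, muscle creatine kinase, fell by 1.30 ± 0.18 on the log2 scale, and Myl2, a myosin light chain, rose by 0.71 ± 0.18 (adjusted p = 0.000794 and 0.0217), a call lost without PE replicate 1 (adjusted p = 0.208) or without PE replicate 2 (adjusted p = 0.288). More of these markers were called in both directions without either control library, as over all tested genes. Of 5 tested Schwann and glial markers, edgeR called 0, DESeq2 called 0 and 2 were lower at an unadjusted p under 0.05. Those 2 have no share of all tested genes beside them either. Mbp, a myelin protein, was at -0.59 ± 0.20 (adjusted p = 0.0809). Genes of the list were called lower without control replicate 2, where more of all tested genes were called. Of 10 proliferation markers the cyclin gene Ccnb1 rose by 1.00 ± 0.20 (adjusted p = 0.00729) and 9 did not pass. More were called higher without either control library, as over all tested genes.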

How the data were processed

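RNA of 4 libraries was measured by strand-specific RNA-seq. The deposited table holds raw counts per gene and library. Per the submitters' processing notes, cutadapt 2.0, STAR 2.4.2a and featureCounts 1.6.4 were used with the build Rnor_6.0. Their parameters, the annotation release and the strand option of the counting are not given in the sources read here. The authors' deposited comparison table gives, per the file headers, mean normalised counts, log2 fold changes with their errors, p-values with adjusted p-values, and a test statistic (a score), and it supplied the gene names.

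Counts were used as deposited, and groups came from the titles. edgeR 4.0.16 (R 4.3.3) gave the main quasi-likelihood test, with TMM factors and filterByExpr (smallest count 10, smallest total 15), which kept 15257 of 32883 genes. There were 2 residual and 8.1 prior degrees of freedom. Replicate counts differed beyond sampling noise: the chi-square value per degree of freedom was 133 for the control pair and 19.8 for the PE pair. Alternatives were DESeq2 1.42.0, other scaling factors, no filter, a replicate block, no mitochondrial transcripts, and leaving out each library. Fold changes are PE over control, and errors after ± are SE of the fit.

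On simulated counts for this comparison (15257 genes), 12% of genes changed 1.5-fold, 58% changed 2-fold, 94% changed 4-fold and 98% changed 8-fold were recovered. Far fewer genes were changed in the simulation than were called in the data, and both groups were given the same spread. The percentages therefore hold for that setting and are not the share of true changes found here. The members and gene lists were chosen with earlier results of these data known. All 35 members are named. Of each further list, up to 4 called genes with the largest absolute log2 fold change are named or, with no call, the 2 most abundant tested genes. A gene that this rule names is not reported here. Col1a1, Col1a2 and Epcam were named after their values were seen. Promoters come from a RefSeq table of GRCr8, and no other coordinates were used.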

Additional observations from a re-analysis of the deposited data

How the results depend on the processing

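Alternatives were run on 8 summary values and on each of the 33 genes. The summary counts stayed within 1.5 times, and the medians within the replicate spread, with DESeq2, other factors, no filter and no mitochondrial transcripts. Leaving out each library moved the genes called higher from 1127 to between 604 and 2398 and those called lower from 1266 to between 601 and 2389. The fibroblast genes called lower ranged from 4 to 7 and those called higher from 1 to 6, and the mesothelial genes called lower from 2 to 8 and higher from 0 to 2. The median log2 fold change of fibroblast genes ranged from -0.092 to 0.037, and that of mesothelial genes from -0.75 to -0.44. Reversals among single genes, none of them called over all 4 libraries, were Tcf21 with library sizes alone (-0.010) and, over the libraries left out in turn, Tcf21 (-0.046 to 0.136), Lum (-0.30 to 0.70), Vim (-0.14 to 0.37), Krt19 (-0.44 to 0.93) and Tbx18 (-0.107 to 0.023). The cause was not tested.

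The labels name nothing that libraries of the same replicate number share. Deviations of same-numbered libraries from their group means correlated at -0.229 across genes. With 2 libraries per group, this cannot show whether same-numbered libraries came from a shared preparation. With a replicate block 1964 genes were called against 2393 without it, 14 of the 18 member calls were kept (not Pdgfra, Upk1b, Msln and Aldh1a2, with adjusted p = 0.0735, 0.0685, 0.0619 and 0.0529), and 1 mesothelial gene was called higher. A crossed replicate block, which pairs libraries of unlike number, was added after same-numbered libraries were seen to deviate in opposite directions. The pairing was thus picked on these deviations, and its larger number of calls is not separate support. It called 4677 genes (2270 higher, 2407 lower), with 4 fibroblast genes higher. Genes with few reads, such as Ogn, Mfap5, Krt7, Krt19 and Bnc1, have wide intervals.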
